A study of Mus musculus with 16 samples.

Results

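The contacts described here are 462 pairs of DNA fragments that scored high in wild-type mouse cells, as embryonic stem cells and again as epiblast-like cells. In cells without DNA methyltransferases they scored low at both stages. They were taken from a table of 260860 contacts of 20017 promoter fragments, of which they are 0.177%. Each contact carries a CHiCAGO score, a weighted measure of how far its read count exceeds the background expected at its distance, and a score of 5 is the usual threshold for calling a contact. The members were chosen by the scores of the 4 DNMT columns: 5 or more in both DNMT_WT columns and under 3 in both DNMT_KO columns. They form 1.06% of the 43572 contacts at 5 or more in both DNMT_WT columns, among which 25757 (59.1%) also stayed at 5 or more in both DNMT_KO columns and are called kept below, and 17353 (39.8%) lay between.

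Promoter-capture Hi-C joins DNA fragments that lie close together in the nucleus and enriches the products that hold a gene promoter (the bait), so that each read pair reports a promoter and its partner fragment. The series followed mouse embryonic stem cells (ESC, day 0, cultured in 2i and Lif) into epiblast-like cells (EpiLC, day 2) in 4 lines. DNMT_KO lacks Dnmt1, Dnmt3a and Dnmt3b, TET_KO lacks Tet1, Tet2 and Tet3, and DNMT_WT and TET_WT are the wild-type lines from which they were made. Each knock-out is represented by 1 line, so a difference between a knock-out and its parent cannot be told apart from a difference between those lines. The labels list 2 samples for each of the 8 groups of line and stage (16 in all), but the table has 1 column per group, so no value has an SD or an n and the sequencing depth is unknown. The table holds no expression or methylation values, and neither the identity of the cells nor the deletions were checked here. In every series of values below, the first number of each pair is ESC and the second EpiLC.

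DNA methylation in mammals is the addition of a methyl group to cytosine, mostly where a G follows (a CpG site). Dnmt3a and Dnmt3b set new marks and Dnmt1 copies them when DNA is replicated, while the Tet enzymes oxidise the mark and lead to its removal. Naive stem cells in 2i carry little methylation and gain it as they move towards the epiblast state. The mark can keep some DNA-binding proteins off their sites, among them CTCF, which with cohesin holds many long-range contacts in place.

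Promoters of the member baits ran from CpG-poor to CpG-rich, and 5 are shown for that range. Each sequence is a RefSeq window of 300 bases on GRCm38.p6, from 250 bases before to 50 bases after a transcription start inside the bait fragment, written in the direction of the gene with every CpG in capitals. Hjurp is the bait with the most members, Tfcp2l1 is a naive pluripotency factor, Runx1 and Etv2 are regulators of blood and vessel formation, and Gabrq belongs to a member found in every TET column. The windows are Hjurp at chr1:88277530-88277829 (minus strand), Tfcp2l1 at chr1:118627695-118627994 (plus), Gabrq at chrX:72824928-72825227 (plus), Etv2 at chr7:30635803-30636102 (minus) and Runx1 at chr16:92826025-92826324 (minus).
Hjurp: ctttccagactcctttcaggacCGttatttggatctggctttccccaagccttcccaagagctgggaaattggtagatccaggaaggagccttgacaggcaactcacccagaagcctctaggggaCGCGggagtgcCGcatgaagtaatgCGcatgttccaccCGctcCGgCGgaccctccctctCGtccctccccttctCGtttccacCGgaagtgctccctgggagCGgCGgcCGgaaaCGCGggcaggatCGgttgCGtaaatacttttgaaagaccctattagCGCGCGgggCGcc
Gabrq: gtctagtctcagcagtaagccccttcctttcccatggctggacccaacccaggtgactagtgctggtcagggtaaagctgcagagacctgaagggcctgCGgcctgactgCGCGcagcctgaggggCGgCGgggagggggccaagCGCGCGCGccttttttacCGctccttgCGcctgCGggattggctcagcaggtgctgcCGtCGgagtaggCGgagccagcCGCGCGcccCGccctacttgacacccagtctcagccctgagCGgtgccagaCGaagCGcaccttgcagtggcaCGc
Tfcp2l1: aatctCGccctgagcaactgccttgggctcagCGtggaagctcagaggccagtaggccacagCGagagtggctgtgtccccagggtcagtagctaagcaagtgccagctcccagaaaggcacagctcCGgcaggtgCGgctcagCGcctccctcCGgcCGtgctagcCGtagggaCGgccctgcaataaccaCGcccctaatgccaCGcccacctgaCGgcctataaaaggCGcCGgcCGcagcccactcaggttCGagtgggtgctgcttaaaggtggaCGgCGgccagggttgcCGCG
Etv2: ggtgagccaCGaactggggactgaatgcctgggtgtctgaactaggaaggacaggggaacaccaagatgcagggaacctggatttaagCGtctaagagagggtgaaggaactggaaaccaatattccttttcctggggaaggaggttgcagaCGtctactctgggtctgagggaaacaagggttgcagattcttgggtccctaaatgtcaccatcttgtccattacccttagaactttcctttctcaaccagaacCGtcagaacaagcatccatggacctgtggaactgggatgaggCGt
Runx1: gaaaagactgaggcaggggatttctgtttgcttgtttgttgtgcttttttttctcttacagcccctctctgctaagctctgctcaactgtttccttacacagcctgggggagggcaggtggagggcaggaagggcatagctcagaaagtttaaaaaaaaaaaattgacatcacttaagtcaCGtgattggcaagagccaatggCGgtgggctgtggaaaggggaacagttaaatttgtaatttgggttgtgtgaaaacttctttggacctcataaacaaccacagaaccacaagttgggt
The Gabrq window holds 23 CpG sites, the Hjurp window 22 and the Tfcp2l1 window 21, whereas Etv2 has 5 and Runx1 has 2. Of the 416 member baits, 239 had a matched RefSeq promoter window. Their 273 windows had a median of 13 CpG sites (interquartile range 4 to 24). Windows of the kept contacts' baits had a median of 16 (6 to 25), those of all listed baits 16 (5 to 26), and those of the opposite class, contacts gained in DNMT_KO, 13 (5 to 25). The share of contacts lost hardly moved with the CpG content of the bait. It was 1.13% of contacts at 5 or more in DNMT_WT for baits with under 10 CpG sites, 1.01% for 10 to under 20, 1.07% for 20 or more, and 1.04% for baits without a matched window.

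Short motifs were sought in the same windows on both strands, each counted once per window whatever else overlapped it. AGGGGGC, the core of the CTCF motif, occurred in 41 of the 273 member windows (15%) and in 14.3% of the windows of all listed baits. The E-box CACGTG, whose central CpG can carry methylation, occurred in 6.59% against 8.45%, and the Runx1 window holds 1. Windows with GCATGCGC, the core of the NRF1 motif, made up 3.66% against 4.15%, and those with the cyclic AMP response element TGACGTCA 4.03% (11 windows) against 2.52%. These are letter matches in promoter windows only, and the partner fragments were not searched.

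The 462 members were mostly modest contacts to begin with. Their median score was 6.05 and 5.83 in DNMT_WT (interquartile ranges 5.38 to 7.38 and 5.35 to 6.75) and 2.02 and 2.23 in DNMT_KO (1.36 to 2.59 and 1.40 to 2.67), values that the rule itself selected. Kept contacts had medians of 8.74 and 8.36 in DNMT_WT and 8.23 and 8.36 in DNMT_KO. In 339 members (73.4%) the lower DNMT_WT score lay between 5 and 6, compared with 23.6% of kept contacts, and in 22 it was 8 or more. Of the contacts whose lower DNMT_WT score was 5 to 6, 2.00% were lost, and of the 11507 at 8 or more, 0.191%. Few members emptied out in the knock-out: 28 scored under 1 in both DNMT_KO columns, 13 were 0 in both, and 156 still scored 2 or more in both.

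Close to the thresholds, inclusion rested on very small differences. A contact of the U6.899 bait (a small nuclear RNA copy) entered with 5.0004 and 5.66 in DNMT_WT, whereas one of Id2, an inhibitor of basic helix-loop-helix factors, stayed out with 4.998 and 5.77, both having DNMT_KO scores under 3. On the knock-out side, a contact of Atcay, the gene for the brain protein caytaxin, entered with 2.65 and 2.998 in DNMT_KO. One of Lmna, which encodes the nuclear lamins A and C, stayed out with 2.50 and 3.0004.

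The TET columns, which the rule did not use, placed the members between those levels. Their median was 3.42 and 3.76 in TET_WT (interquartile ranges 2.18 to 5.03 and 2.301 to 5.30) and 4.25 and 4.25 in TET_KO (2.62 to 6.11 and 2.93 to 5.96), while kept contacts had medians of 8.01 and 8.40 and of 8.33 and 8.55. The TET_WT line therefore did not hold most of the members at the calling threshold. All listed contacts had medians of 3.84 and 4.10 in TET_WT and of 4.04 and 4.22 in TET_KO. The members thus lay below the listed contacts in TET_WT and near them in TET_KO. Of the 454 members with all 4 TET scores, 49 (10.8%) reached 5 in both TET_WT columns, against 78.2% of kept contacts and 18.8% of all listed contacts. Another 86 (18.9%, background 17.6) scored under 3 in both TET_WT columns, as the DNMT knock-out did, and only 0.311% of kept contacts did so. Kept contacts were not matched to the members for DNMT_WT score or distance. Contacts gained in DNMT_KO, which are low in DNMT_WT by rule, gave much the same picture in TET_WT, with 9.62% at 5 or more in both columns and 22.0% under 3 in both.

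**Figure D1:**
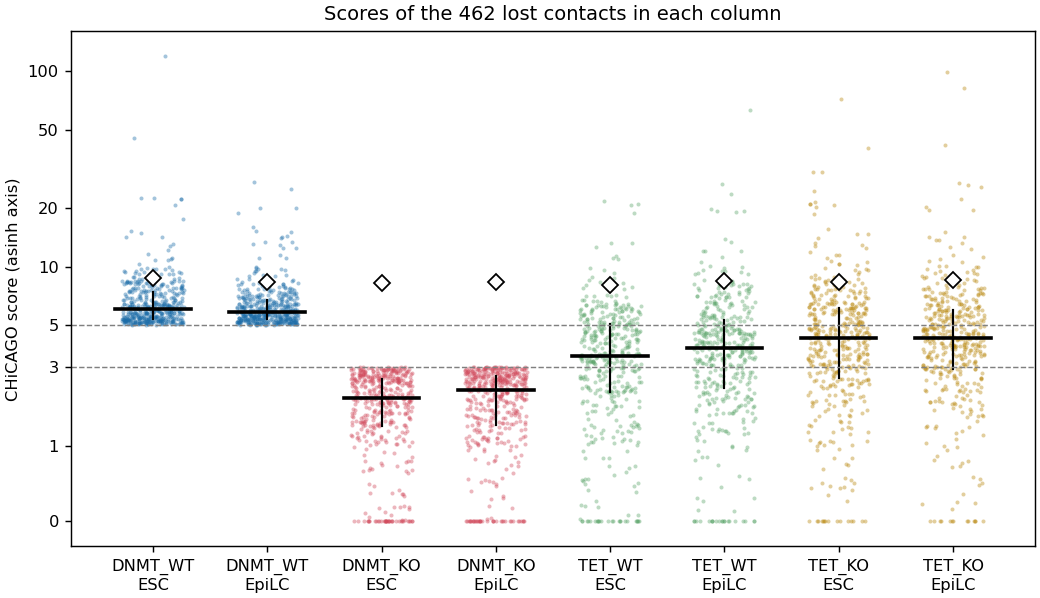
CHiCAGO score (vertical axis, asinh scale) of the 462 members in each of the 8 columns of line and stage; points are contacts, thick bars the median and thin bars the interquartile range, open diamonds the median of the 25757 kept contacts, and dashed lines the rule's thresholds of 3 and 5. The DNMT columns are set apart by the rule, and the TET columns, with medians from 3.42 to 4.25, spread over both thresholds.

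More members were called in TET_KO than in TET_WT. In TET_KO, 99 of 454 (21.8%, background 21.1) reached 5 at both stages and 61 (13.4%, background 16.2) lay under 3 at both. The mean TET_KO score exceeded the mean TET_WT score in 268 members (59.0%), compared with 53.2% of all listed contacts and 54.1% of kept ones. In 25 members (5.51%, background 12.1) all 4 TET columns reached 5, in 30 (6.61%, background 5.83) all 4 lay under 3, and in 146 (32.2%, background 24.0) no TET column reached 5. These backgrounds cover all listed contacts, whether or not DNMT_WT called them. Among contacts at 5 or more in both DNMT_WT columns the 3 shares were 51.2%, 0.272% and 4.66%. Without the Hjurp bait, which alone has 21 members, 43 of 433 (9.93%) reached 5 in both TET_WT columns, 87 (20.1%) in both TET_KO columns and 20 (4.62%) in all 4.

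A linear model over the 4 TET columns (limma, with stage and genotype as terms, scores on the asinh scale after quantile normalisation) tested all 245516 contacts with complete scores, and 454 members were among them. It called no member and no other contact at a Benjamini-Hochberg adjusted p of 0.05, for stage or for TET genotype (background 0.0), with 4 columns and 1 residual degree of freedom. The lowest adjusted p of a member was 0.377 for stage and 0.149 for genotype, the latter for a contact between the Hjurp bait and chromosome 17. At an unadjusted p under 0.05, 53 members (11.7%, background 4.94) were higher and 17 (3.74%, background 4.26) lower in TET_KO, and 42 (9.70%) and 17 (3.93%) without Hjurp. For stage, 33 (7.27%, background 6.46) were higher and 27 (5.95%, background 5.69) lower in EpiLC. The median difference between TET_KO and TET_WT was 0.09 over the members (0.06 without Hjurp) and -0.01 over all contacts on that scale.

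Lost contacts were longer than kept ones. Members on 1 chromosome spanned a median of 432 kb between the fragments (interquartile range 260 to 728 kb), kept contacts 189 kb and all listed contacts 275 kb. Within 1 Mb lay 383 members (82.9%; 86.8% without Hjurp), compared with 97.7% of kept contacts, 91.3% of all listed contacts and 62.2% of the contacts gained in DNMT_KO. The share lost among contacts at 5 or more in both DNMT_WT columns was 0.195% under 100 kb (20 of 10250), 0.829% from 100 to 500 kb (240 of 28965), 3.69% from 500 kb to 1 Mb (123 of 3330), 7.20% from 1 to 10 Mb (43 of 597) and 11.9% beyond 10 Mb (24 of 201). Beyond 10 Mb the Hjurp bait gave 18 of the 24 lost contacts and 50 of the 201. The share in that class thus rests largely on 1 bait. Between chromosomes the share lost was 5.24% (12 of 229). The same order of the cis classes held for contacts gained in DNMT_KO, from 0.103% to 7.41%, and for those lost in TET_KO, from 0.812% to 19.1%. Up to 10 Mb, longer contacts thus left and entered the called range more often under each of these rules. This was not particular to the lost class. Beyond 10 Mb the lost class rested largely on Hjurp, and chromosome 4 alone gave 61 gained contacts over 5 Mb. The shares by distance without these were not computed.

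**Figure D2:**
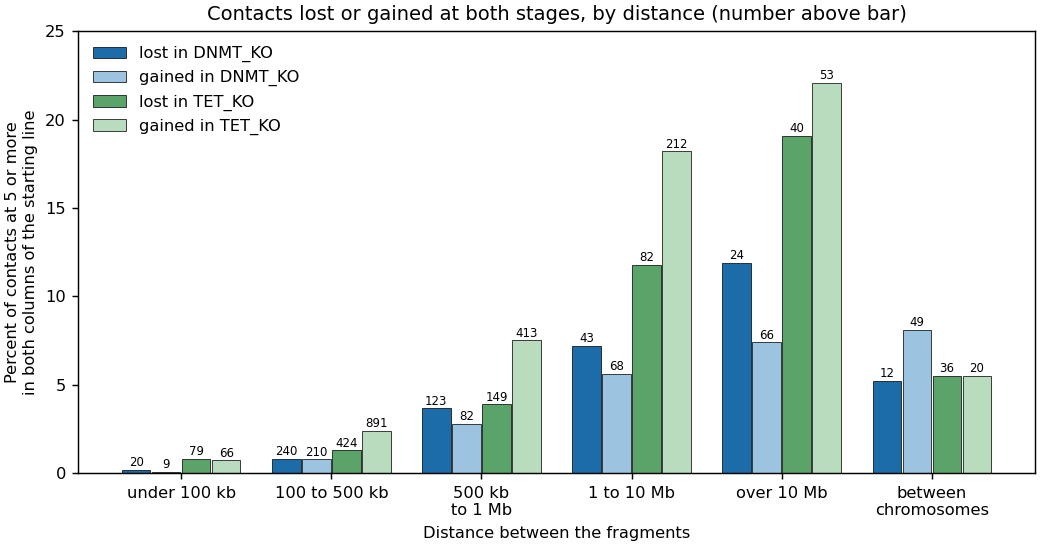
Share of contacts lost or gained at both stages (vertical axis, percent of the contacts at 5 or more in both columns of the line in which they are called) by distance between the fragments, with the number of contacts above each bar. In all 4 classes the share rises with distance within a chromosome. For contacts lost in DNMT_KO it goes from 0.195% under 100 kb to 11.9% beyond 10 Mb, where 18 of the 24 belong to the Hjurp bait.

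Most members were the only one of their promoter. Of the 416 member baits, 390 had 1 member, 24 had 2, and only Hjurp (21) and Nhedc1 (3) had more. Kept contacts (1271 in all) were found at 239 of these baits (57.5%), against 34.7% of all listed baits and 72.6% of the 9576 baits with any contact at 5 or more in both DNMT_WT columns. Gained contacts were found at 23 (5.53%), against 2.02% and 3.00%. Across the 11447 other listed contacts of the member baits, the median difference between DNMT_KO and DNMT_WT on the asinh scale was -0.09, compared with -0.02 over the 239824 contacts of other baits. Among the 384 member baits with at least 5 other contacts, 281 had a median below 0, and the medians ran from -0.89 to 0.62. The same count was not made for other baits, whose contacts also had a median below 0. Member baits were chosen through these same DNMT columns, so the lower medians of their other contacts are not independent of the rule. Of the 450 members on 1 chromosome, 104 (23.1%), or 86 without Hjurp, had another member within 200 kb at both ends. That member belonged to the same bait or to a nearby one. No such share was computed for kept or all listed contacts, so closeness cannot be called a trait of lost contacts.

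The 462 partner fragments have 924 adjoining restriction fragments, of which 307 were listed as contacts of the same bait. Only 57 of these scored 5 or more in both DNMT_WT columns and could meet the rule. Of the 57, 4 were lost as well (7.02%, background 1.06), 15 were kept (26.3%, against 59.1% of all such contacts) and 38 lay between. A further 22 reached 5 in both DNMT_KO columns but not in both DNMT_WT columns. The 4 form 2 adjoining pairs, each counted from both of its fragments, 1 of Txnrd3, a thioredoxin reductase gene, and 1 of Rspo3. The backgrounds were not matched for distance or score, and from 1 to 10 Mb the share lost was 7.20%. Rspo3 encodes a secreted activator of Wnt signalling, and its contacts with 2 neighbouring fragments in Trmt11, a tRNA methyltransferase gene, at 1001 and 1004 kb, scored 5.11 and 5.68 and, for the second, 5.18 and 5.74 in DNMT_WT. In DNMT_KO they scored 0.338 and 0.263, and 1.37 and 0.278. The TET_KO scores were high in both (6.06 and 4.65, and 10.2 and 7.02), and the TET_WT scores were lower (0.468 and 2.60, and 2.64 and 4.71).

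At other promoters an adjoining fragment did not share the loss. Wnt5a, which encodes a Wnt ligand of the gastrulating embryo, lost its contact at 697 kb with a fragment in Erc2 (chr14:27805700-27807356), which scored 5.98 and 7.07 in DNMT_WT, 2.26 and 2.83 in DNMT_KO, 2.24 and 8.11 in TET_WT, and 8.81 and 12.3 in TET_KO. The fragment next to it scored 5.32 and 7.23 in DNMT_WT and 4.796 and 6.93 in DNMT_KO, and the one on the other side 3.05 and 2.67 against 4.21 and 7.62. A contact of the predicted gene Gm10032 at 381 kb scored 9.70 and 5.72 in DNMT_WT and 2.72 and 2.38 in DNMT_KO, whereas the fragment beside it held 10.6 and 10.0 against 9.84 and 10.7. In these cases the promoter kept a called or nearly called contact within the same small interval.

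Hjurp, the gene for the chaperone that loads the centromeric histone CENP-A, was the one promoter with many losses. Its bait at chr1:88276241-88278577 had 54 contacts at 5 or more in both DNMT_WT columns, of which 21 were lost and 9 kept, and it also gained 15 in DNMT_KO. Of the 21, 18 joined it to the first megabases of chromosome 1 (partner fragments from chr1:3211067 to 4520236, 83758 to 85065 kb away), a stretch that holds Xkr4 and Rp1, and 3 joined other chromosomes. The medians of the 18 were 8.55 and 10.4 in DNMT_WT, 1.23 and 0 in DNMT_KO, 0 and 6.96 in TET_WT, and 8.18 and 7.68 in TET_KO. In the TET_WT line 4 of the 18 (22.2%) reached 5 in ESC and 11 (61.1%) in EpiLC, and in TET_KO 12 (66.7%) and 13 (72.2%) did. The other 403 listed contacts of the bait beyond 10 Mb gave shares near these, 27.3% and 46.4% in TET_WT and 59.1% and 62.0% in TET_KO.

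Those 403 contacts had medians of 1.31 and 0.715 in DNMT_WT, 1.35 and 0.774 in DNMT_KO, 1.14 and 4.36 in TET_WT, and 7.65 and 6.76 in TET_KO. Higher scores in TET_KO were thus shared by the far contacts of this bait, while the difference between the DNMT lines in the 18 was set by the rule. Individual scores swung between columns: the strongest of the 18, at chr1:3286320 (84991 kb), scored 22.1 and 19.96 in DNMT_WT, 1.11 and 0 in DNMT_KO, 1.40 and 19.2 in TET_WT, and 20.9 and 1.34 in TET_KO. The reverse view from the chromosome start gave the predicted gene Gm1992, whose contact with a fragment in Mroh2a near Hjurp (84790 kb) scored 12.99 and 11.5, 0.642 and 0, 6.03 and 0, and 12.4 and 0.220 in DNMT_WT, DNMT_KO, TET_WT and TET_KO.

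**Figure D3:**
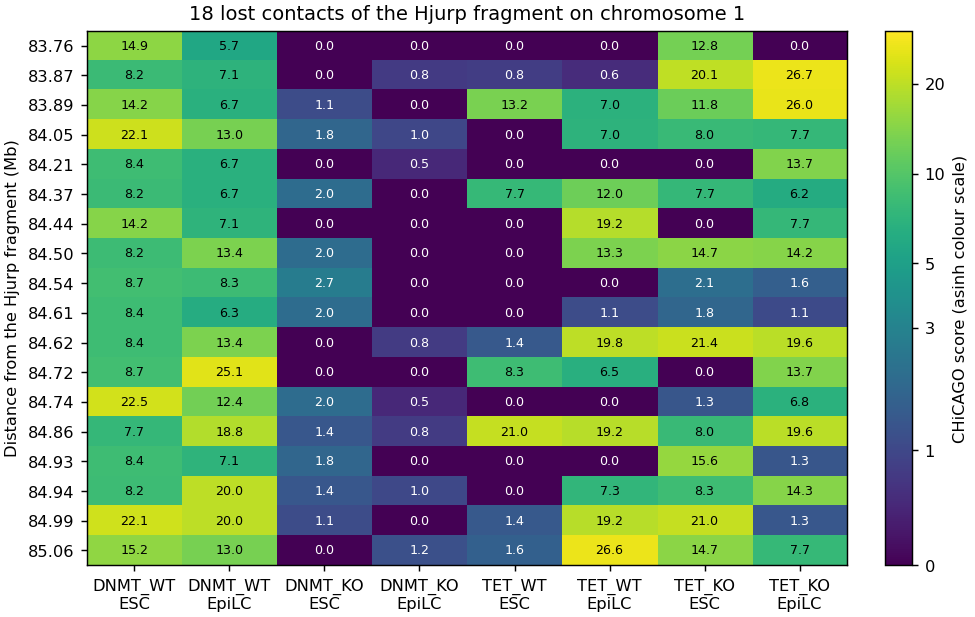
CHiCAGO scores of the 18 members that join the Hjurp fragment to the start of chromosome 1, 1 row per contact ordered by distance (Mb) and 1 column per line and stage; colour is on an asinh scale and the score is written in each cell. DNMT_KO values stay at or below 2.70, while TET_WT in ESC holds 4 values above 5 and the other TET columns 11 to 13.

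The highest DNMT_WT scores in ESC between chromosomes belonged to the same region. The fragment chr10:113211613-113213951 was lost to Hjurp, with 119.9 and 5.87 in DNMT_WT and 0.163 and 0.298 in DNMT_KO, against 18.7 and 63.0 in TET_WT and 72.3 and 99.5 in TET_KO. It was also lost to the neighbouring Mroh2a bait (listed as Heatr7b1), with 45.7 and 6.81, 0 and 1.30, 6.13 and 5.91, and 30.7 and 81.7 in the same order. All TET columns were above 5 in both contacts, so that only the DNMT_KO line stood low. Contacts of Hjurp with chr17:23514824 and chr17:23341598 were lost too, the first at 20.7 and 7.08 against 1.44 and 0 and the second at 12.2 and 8.13 against 1.93 and 0.

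Other members between chromosomes differed more from column to column. Mrps35, which encodes a protein of the mitochondrial ribosome, touched chr10:87680935-87683082 at 22.4 and 27.1 in DNMT_WT, the highest lower DNMT_WT score of any member, and scored 1.39 and 0 in DNMT_KO and 0 and 8.20 in TET_KO, with no TET_WT score listed. The fragment next to it scored 0 and 27.1 in DNMT_WT and 21.6 and 7.46 in DNMT_KO. Gm9733, a predicted gene, touched chr16:85364863-85366564 at 11.6 and 12.5 in DNMT_WT and 0 and 0 in DNMT_KO, with 21.7 and 4.76 in TET_WT and 21.0 and 0 in TET_KO, and the adjoining fragment was kept (36.2 and 12.5 against 18.9 and 13.8). Here too the loss covered 1 fragment and not its neighbour. Zfp938, a zinc-finger gene, touched a fragment in Eif5, a translation initiation factor gene on chromosome 12, at 9.53 and 15.99 in DNMT_WT, 2.18 and 2.53 in DNMT_KO, and at most 1.35 in any TET column. That contact was thus called in the DNMT_WT line alone among the 4 lines.

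Of the 25 members at 5 or more in all 4 TET columns, 16 lay within 1 Mb. These are the members that 3 of the 4 lines held and DNMT_KO did not. Gabrq, the theta subunit of the GABA-A receptor, touched a fragment in Cnga2, an olfactory channel gene, 830 kb away on chromosome X (chrX:71992646-71994043), and scored 6.89 and 6.56 in DNMT_WT, 1.19 and 1.12 in DNMT_KO, 6.68 and 8.09 in TET_WT, and 8.37 and 8.41 in TET_KO. The 6 scores outside the knock-out lay within 6.56 to 8.41, well apart from its 2 low values. Ccnb1ip1, a ubiquitin ligase needed for meiotic crossing over, touched chr14:49863042-49864063 at 935 kb with 7.41 and 8.25 in DNMT_WT, 2.12 and 1.33 in DNMT_KO, 6.34 and 6.01 in TET_WT, and 14.0 and 12.6 in TET_KO. Another member of that bait lay at 236 kb and was less even, with 5.75 and 5.16, 2.37 and 2.99, 9.29 and 3.33, and 9.63 and 5.54 in the same order. A contact of the predicted gene Gm2221 at 1760 kb scored 8.41 and 8.17 in DNMT_WT, 2.91 and 1.30 in DNMT_KO, 6.70 and 8.03 in TET_WT, and 7.32 and 6.44 in TET_KO. It, too, was low only in DNMT_KO.

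Klf5 and Tfcp2l1 were the naive pluripotency factors among the members. Klf5, a Kruppel-like factor of the naive network, touched a fragment in the neighbouring Klf12 (chr14:99893779-99895322, 597 kb) with 9.29 and 6.64 in DNMT_WT, 1.43 and 2.46 in DNMT_KO, 8.86 and 2.47 in TET_WT, and 4.76 and 11.1 in TET_KO. The wild-type lines thus both scored high in ESC, and in EpiLC TET_WT was as low as DNMT_KO. Tfcp2l1, listed as Tcfcp2l1 and needed for self-renewal in the naive state, touched chr1:119072855-119075242 (447 kb) with 9.51 and 5.02 in DNMT_WT, 2.29 and 2.83 in DNMT_KO, 4.92 and 4.28 in TET_WT, and 7.77 and 2.53 in TET_KO. In each line except DNMT_KO its ESC score was the higher of the pair. The naive list had 2 lost of 25 contacts at 5 or more in DNMT_WT (8%, background 1.06), and none gained. These 2 contacts are too few to set apart from that background, which was not matched for distance. In the list of formative and primed epiblast genes 1 of 63 was lost (1.59%), that of Grhl2, an activator of epithelial genes, at 686 kb, with 5.82 and 5.66, 2.17 and 1.08, 3.23 and 3.38, and 3.56 and 2.73. No TET column called the Grhl2 contact.

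**Figure D4:**
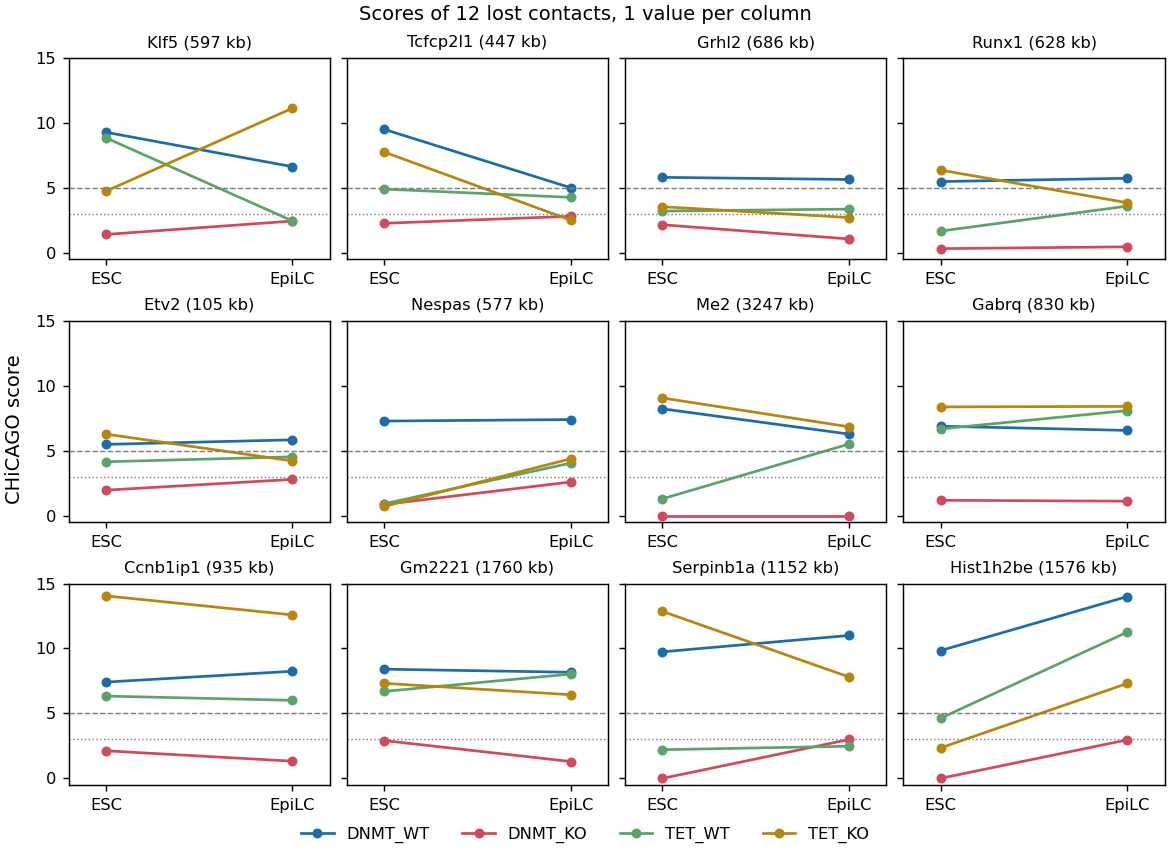
CHiCAGO scores of 12 members (1 panel each, named by the bait gene with the distance between the fragments) in ESC and EpiLC; each line is 1 of the 4 cell lines, each point 1 value, and dashed and dotted lines mark scores of 5 and 3. Gabrq, Ccnb1ip1 and Gm2221 lie above 5 in every column but those of DNMT_KO, while Nespas and Grhl2 are under 5 in every TET column.

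Among regulators of blood and vessel formation, 2 of 103 contacts at 5 or more in DNMT_WT were lost (1.94%), and 2 were gained. Runx1, the factor required for the first blood stem cells, touched chr16:93451401-93454529 at 628 kb, with 5.50 and 5.75 in DNMT_WT, 0.335 and 0.475 in DNMT_KO, 1.69 and 3.61 in TET_WT, and 6.38 and 3.87 in TET_KO. Etv2, an ETS factor at the head of the endothelial and blood programme, touched a fragment in Arhgap33 at 105 kb with 5.49 and 5.84, 1.97 and 2.79, 4.15 and 4.53, and 6.28 and 4.22. Both were weak contacts in DNMT_WT, under 6 at each stage, and in the TET lines each passed 5 in TET_KO ESC alone. Regulators of the germ layers gave 2 of 85 for mesoderm and primitive streak (Foxc1 and Wnt5a) and 2 of 86 for neuroectoderm (Pax6 and Nkx6-1). Foxc1, a forkhead factor of mesenchyme, touched chr13:32403682-32407025 (601 kb) with 7.57 and 5.35, 0.914 and 0.942, 5.94 and 1.99, and 11.5 and 9.99. Nkx6-1, a homeobox factor of the ventral neural tube, scored 6.22 and 9.53, 2.10 and 2.08, 6.11 and 4.43, and 6.05 and 5.48 at 715 kb, and Pax6, a factor of eye and forebrain, 5.52 and 5.36, 2.46 and 2.63, 2.27 and 5.02, and 3.26 and 5.49 at 416 kb.

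Lists tied to DNA methylation gave counts too small to set apart from the 1.06% background. Baits of the methylation machinery had 0 lost of 31, baits of germline genes known to be silenced by methylation 0 of 76, and imprinted genes 1 of 304 (0.329%). The imprinted member belonged to Nespas, an antisense transcript of the Gnas locus, which touched chr2:174876795-174877146 (577 kb) with 7.28 and 7.40 in DNMT_WT, 0.868 and 2.60 in DNMT_KO, 0.921 and 4.05 in TET_WT, and 0.711 and 4.38 in TET_KO. DNMT_WT alone reached 5 there. Mbd2, which encodes a reader of methylated CpG, appeared as a partner: the bait of Me2, a mitochondrial malic enzyme, touched the Mbd2 promoter fragment 3247 kb away at 8.23 and 6.28, 0 and 0, 1.30 and 5.52, and 9.06 and 6.84. Only DNMT_KO gave no score above 0 for that pair. Baits of architectural proteins such as CTCF and cohesin subunits had 0 lost of 8, and the baits of Dnmt1, Dnmt3a and Dnmt3b had 0, 1 and 2 contacts at 5 or more in both DNMT_WT columns, none of them lost.

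Gene families and clusters contributed members at shares from 0 to 3.64%, on both sides of the 1.06% background. Histone clusters had 6 lost of 328 (1.83%) and 4 gained, and 5 of the 6 spanned 1526 to 1788 kb in the large cluster on chromosome 13. Hist1h2be touched the Hist1h4i promoter fragment at 1576 kb with 9.84 and 14.0 in DNMT_WT, 0.00947 and 2.97 in DNMT_KO, 4.64 and 11.3 in TET_WT, and 2.36 and 7.31 in TET_KO. Its EpiLC score was the higher one in every line. Hist1h4h had 2 members, at 1526 kb (11.1 and 5.22 against 0.740 and 1.40) and at 233 kb (7.55 and 5.01 against 1.25 and 2.87). Another far pair of chromosome 13 joined Serpinb1a, an inhibitor of neutrophil proteases, to the promoter fragment of Ripk1, a kinase of cell-death signalling, at 1152 kb, with 9.74 and 11.0, 0 and 2.99, 2.21 and 2.48, and 12.9 and 7.81. There TET_KO resembled DNMT_WT and TET_WT did not.

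Hox genes, which set position along the body axis, had 4 lost of 324 (1.23%) and none gained. They were contacts of Hoxa10 at 1041 kb (5.36 and 5.70 in DNMT_WT, 2.59 and 1.15 in DNMT_KO), Hoxb7 at 591 kb (6.81 and 6.33, 1.68 and 1.94), Hoxd10 at 893 kb (7.76 and 6.08, 1.37 and 1.29) and Hoxd13 at 372 kb (7.06 and 6.18, 2.85 and 1.71). In the TET columns Hoxb7 stayed between 1.27 and 3.01, whereas Hoxd13 ran from 3.82 to 8.70. Olfactory receptors, the largest mammalian gene family, had 12 lost of 703 (1.71%) and 15 gained. Olfr1277 and Olfr1314, both receptor genes on chromosome 2 and 821 kb apart, scored 7.01 and 11.0 in DNMT_WT, 2.77 and 1.55 in DNMT_KO, 4.73 and 9.49 in TET_WT, and 5.51 and 8.89 in TET_KO. Copies of small nuclear and nucleolar RNA genes had 25 lost of 3230 (0.774%) and 47 gained, microRNA genes 7 of 537 (1.30%) and 9 gained, Zfp genes 3 of 448 (0.670%), clustered protocadherins 2 of 157 (1.27%), vomeronasal receptors 2 of 55 (3.64%), forkhead genes 1 of 108 (0.926%), Sox genes 1 of 39 (2.56%), and ribosomal protein and cytochrome P450 genes 0 of 120 and 0 of 94.

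The partner fragments were of ordinary kinds. Of the 462, 52 (11.3%) were themselves baits, compared with 13.9% for kept contacts and 9.12% for all, and 309 (66.9%) overlapped a RefSeq gene, compared with 71.7% and 67.7%. By chromosome, the share lost ran from 0.432% on chromosome 19 (7 of 1620) to 2.42% on chromosome 1 (54 of 2229), which was 1.52% without Hjurp, and 2.28% on X (14 of 614). Chromosome 4 had 23 lost contacts and 124 gained ones, and none of the 203 far contacts within it (over 5 Mb) at 5 or more in DNMT_WT was lost. By the matching rules in the TET lines, 2 members (0.433%, background 0.311) were also lost in TET_KO and 9 (1.95%, background 0.634) were gained there. Both counts are over all members, Hjurp included, and the backgrounds were not matched for distance.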

How the data were processed

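Promoter-capture Hi-C used HindIII digestion, per the labels' protocols. Per the submitters' processing notes, Trim Galore 0.6.5, cutadapt 2.3 and the build GRCm38 were used. The aligner and the version of CHiCAGO were not given in the sources used here. CHiCAGO scores per contact were deposited by the authors, 1 column for each of 8 groups of line and stage. How the 2 labelled replicates of a group entered a column is not stated in those sources, and the series text and the labels differ on the number of replicates. Coordinates are those of the file.

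Members were found by the rule on the scores as deposited, without scaling. The model fit left out 15344 contacts that lack at least 1 score, and shares over TET columns used contacts with all 4 TET scores. Scores were transformed by asinh and quantile normalised over the 8 columns, and stage and genotype were fitted to the 4 TET columns with limma 3.58.1 in R 4.3.3 (lmFit, eBayes with a trend), adjusted by Benjamini-Hochberg over all contacts at 0.05. The fit was tested for stage on simulated data with the same normal spread for every contact. It recovered 69 of 100 differences of 2 and 100 of 100 differences of 4, with 7 false calls. The real scores need not have an equal spread, so this does not show what the fit could find in them. The replicates of the fit are lines and stages, and nothing says whether the samples were separate cultures. No DNMT contrast was tested, since the rule used it.

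Named contacts are the 10 highest by their lower DNMT_WT score, up to 12 at 5 or more in all TET columns, baits with at least 3 members, members of 6 gene lists, the 3 nearest each threshold (some given), and up to 3 far contacts. Of these, 1 is not reported here. Wnt5a, Foxc1, Pax6, Nkx6-1, Rspo3, Txnrd3 and the examples from gene clusters were chosen after their values were seen. Members and gene lists were chosen with earlier results of these data known. Of 416 baits, 352 matched a RefSeq symbol and 343 lay within 2 kb of that gene. Fragment sequences, and whether a partner lies in an exon or intron, were not analysed here. Alternatives were other thresholds, scalings and transformations, and, chosen after seeing the data, leaving out the Hjurp bait or all contacts beyond 1 Mb.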

Additional observations from a re-analysis of the deposited data

How the results depend on the processing

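The number of lost contacts, 462, depended on the thresholds. It was 49 with DNMT_WT at 7 or more, 117 with DNMT_KO under 2, 28 with DNMT_KO under 1 and 4406 with DNMT_KO under 5. Under the same settings the share within 1 Mb, 82.9%, became 34.7%, 55.6%, 17.9% and 96.9%. The share at 5 or more in both TET_WT columns, 10.8%, became 15.6% with DNMT_WT at 7 or more and 23.3% with DNMT_KO under 5, and was 9.73% and 11.1% with DNMT_KO under 2 and under 1. Leaving out Hjurp, chosen after seeing the data, gave 441 contacts, 86.8% of them within 1 Mb. Quantile normalised scores gave 401 lost contacts, 357 of them among the 462, and scores divided by the column mean gave 445, with 387 shared. The TET model called 0 members for stage and for genotype under every alternative run, with 58 to 62 and 65 to 72 members at an unadjusted p under 0.05. Without scaling, the median stage difference was 0.04 over the members and 0.04 over all contacts, in place of -0.03 and -0.02.

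No paired analysis was possible because the columns carry no replicate numbers, and for the same reason leaving out replicates and the replicate block were not run. The cause of the moves with the threshold was not tested. Depth is unknown, and the counting error of a single score was not analysed here.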
